A study of Caenorhabditis elegans with 59 samples.

Results

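The genes described here are C29F7.2 (WBGene00007811), T16G1.6 (WBGene00011800), pgp-1 (WBGene00003995), irg-4 (WBGene00008584) and cest-33 (WBGene00017431) of Caenorhabditis elegans, 5 of the 15698 genes listed in the expression tables. They were taken up as genes that may answer auxin itself, and they were chosen by their auxin minus mock differences in these same libraries, the worms that carry no degron included. Those differences are therefore given below as a description, without a test.

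In the auxin-inducible degron system, the plant hormone auxin binds the F-box protein TIR1, and a protein that carries the degron tag is then ubiquitinated and destroyed by the proteasome. Here the tagged protein was HSF-1, the transcription factor that drives chaperone genes. Auxin is also a small indole compound that the worm has to take up and clear. Worms meet foreign compounds with cytochrome P450 enzymes (cyp genes), with conjugating enzymes such as UDP-glucuronosyltransferases (ugt genes) and glutathione transferases (gst genes), and with ABC transporters that pump the products out, much of this in the intestine. A strain with TIR1 and no degron shows what auxin does when there is no tagged protein to destroy.

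RNA was sequenced from 59 libraries of picked worms. The degron strain JTL611 (hsf-1::aid::gfp with the TIR1 transgene ieSi57, eft-3p::TIR1::mRuby, expressed in the soma) and its control CA1200 (the same TIR1 transgene in an unc-119(ed3) background, no degron) were fertile, grew at 20 °C and were treated from young adulthood for 8 or 24 h, with 3 libraries per strain, treatment and time. JTL667 joins the same tagged hsf-1 and TIR1 transgene to glp-1(e2141), which makes no germline at 25 °C, and JTL670 joins them to fem-3(q20), which makes sperm and no oocytes. Both sterile strains were raised at 25 °C and treated for 8, 24 or 48 h, again with 3 libraries per group except auxin-treated glp-1(e2141) at 48 h, which had 2. Their sample titles carry D1, read here as the first day of adulthood. Titles of the fertile samples carry NHS, read here as no heat shock. Mock worms received the ethanol solvent. There was no sterile strain without a degron, so in the sterile strains auxin itself and the loss of HSF-1 cannot be told apart. Each library is RNA of whole worms, in which fewer cells of a type and less RNA per cell cannot be told apart, and the study calls its RNA-seq replicates of CA1200 biological, while the labels do not say for any strain whether replicates were separate cultures. The p-values measure the spread between these libraries.

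The libraries held between 9131588 and 23867943 reads on listed genes. Values are in CPM, the reads of a gene scaled to a common library total. A level of 3 reads, the most that a count of 0 allows, lay between 0.133 and 0.366 CPM, and covers counting error only. The 8 h and 24 h tables of the fertile strains and the table of the sterile strains were normalized separately, so levels are set side by side across them without a test. All 5 genes passed the filter on low values in all 3 tables; T16G1.6 reached 1 CPM in 5 of 6 mock libraries of the fertile strains at 8 h, in 6 of 6 at 24 h and in 15 of 18 of the sterile strains, so it did not pass only through its auxin libraries. In 18 of the 59 libraries, all of them from sterile strains, the sample title and the treatment tag of the same sample name opposite treatments. They are every library of fem-3(q20) replicates 2 and 3 and of glp-1(e2141) replicate 3. Groups follow the titles here, and values without these 18 libraries stand beside the results of the sterile strains. Replicate 1 of mock glp-1(e2141) at 24 h was the shallowest library, with 9131588 reads. It also differed from its replicates otherwise: 4340 listed genes had no read in it, against 1634 and 1773 in replicates 2 and 3. Its 10 highest genes held 37.6% of its CPM, against 24.5% and 29.6% in replicates 2 and 3. Sperm markers were low in glp-1(e2141), with a summed level of at most 21.2 CPM in any mock library, against at least 1765 CPM in mock fem-3(q20). hsf-1 mRNA, which a degron on the protein need not alter, differed between auxin and mock by between -0.24 and 0.41 on the log2 scale, and none of the 10 differences passed limma's test (lowest adjusted p = 0.41).

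The 5 genes lie at 4 places on 3 chromosomes (build WBcel235, Ensembl annotation). pgp-1, which encodes a P-glycoprotein, an ABC transporter that exports compounds from cells, is K08E7.9 on the minus strand of chromosome IV, from 12591704 to 12599169. irg-4 (F08G5.6), an infection response gene known from worms fed on pathogenic bacteria, is on the plus strand of the same chromosome, from 12435833 to 12438236, which ends 153467 bp before pgp-1 starts. cest-33 (F13H6.3), of the carboxylesterase family, enzymes that split ester bonds, is on the minus strand of chromosome V from 6363408 to 6365671. C29F7.2 is on the plus strand of chromosome X from 13416078 to 13418220, and T16G1.6 on the minus strand of chromosome V from 12935538 to 12937174. Both carry only a sequence name, and no role is given for them. No member overlaps another protein-coding gene. pgp-1 overlaps 4 annotated non-coding entries, so reads of these would not be separated from pgp-1 wherever the counting merged them.

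pgp-1, the transporter, was higher with auxin in both fertile strains at both times. At 8 h it stood at 25.2, 18.7 and 14.8 CPM in auxin-treated JTL611, against 8.33, 5.52 and 5.57 CPM in mock JTL611. In CA1200 at 8 h it stood at 30.2, 22.9 and 16.2 CPM with auxin, against 4.63, 5.39 and 5.42 CPM with mock treatment. In each strain the lowest auxin library was above the highest mock library, and the log2 difference was 1.57 (SE 0.25) in JTL611 and 2.10 (SE 0.25) in CA1200. At 24 h JTL611 had 61.3, 47.3 and 62.0 CPM with auxin, against 36.6, 14.6 and 25.8 CPM with mock treatment. CA1200 at 24 h had 48.0, 36.6 and 44.5 CPM with auxin, against 17.0, 22.1 and 22.8 CPM with mock treatment. Again neither strain's groups overlapped, with a log2 difference of 1.23 (SE 0.28) in JTL611 and 1.06 (SE 0.28) in CA1200.

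cest-33, the esterase, was likewise higher with auxin in both fertile strains, with close replicates at 24 h. At 8 h it had 41.2, 30.3 and 42.3 CPM in auxin-treated JTL611, against 23.6, 20.1 and 15.6 CPM in mock JTL611. CA1200 at 8 h had 56.0, 58.9 and 39.5 CPM with auxin, against 26.8, 24.8 and 15.2 CPM with mock treatment. The groups of each strain were apart, by 0.94 (SE 0.24) in JTL611 and 1.22 (SE 0.24) in CA1200 on the log2 scale. At 24 h cest-33 averaged 34.9 ± 3.35 CPM in auxin-treated JTL611 and 22.2 ± 1.90 CPM in mock JTL611 (SD, n = 3 each). It averaged 37.6 ± 1.58 CPM in auxin-treated CA1200 and 21.6 ± 0.960 CPM in mock CA1200 (SD, n = 3 each). The log2 differences of 0.65 (SE 0.12) in JTL611 and 0.80 (SE 0.12) in CA1200 were the smallest that any of the 5 genes showed in those comparisons, and the groups still did not overlap.

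irg-4, the infection response gene, varied widely between the auxin-treated replicates of CA1200. At 8 h auxin-treated JTL611 had 15.8, 6.21 and 6.49 CPM, against 5.57, 3.31 and 2.96 CPM in mock JTL611, and all auxin libraries were above all mock libraries. CA1200 at 8 h had 25.5, 26.6 and 5.06 CPM with auxin, against 5.07, 2.96 and 1.57 CPM with mock treatment. Replicate 3 of auxin-treated CA1200 fell within the mock range, and this was the only overlap among the 20 member comparisons of the fertile strains. The log2 difference was 1.16 (SE 0.63) in JTL611 and 2.35 (SE 0.63) in CA1200, where it was 3.13 without that library. At 24 h JTL611 had 8.57, 5.04 and 3.94 CPM with auxin, against 2.85, 2.64 and 1.03 CPM with mock treatment. CA1200 at 24 h had 20.3, 18.0 and 5.97 CPM with auxin, against 2.39, 2.35 and 1.94 CPM with mock treatment. Replicate 3 of auxin-treated CA1200 was again the lowest of its group, now above all mock libraries, and the log2 difference was 1.43 (SE 0.48) in JTL611 and 2.49 (SE 0.48) in CA1200.

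C29F7.2 showed a difference between replicates that auxin and mock libraries shared at 8 h. It had 49.7, 24.9 and 28.2 CPM in auxin-treated JTL611, against 17.9, 11.9 and 6.16 CPM in mock JTL611. In CA1200 it had 66.1, 58.8 and 24.8 CPM with auxin, against 23.0, 14.2 and 8.84 CPM with mock treatment. Replicate 1 was the highest library of each of these 4 groups, and the groups did not overlap, with log2 differences of 1.57 (SE 0.48) in JTL611 and 1.68 (SE 0.48) in CA1200. At 24 h JTL611 had 35.5, 32.4 and 37.8 CPM with auxin, against 30.1, 17.6 and 10.3 CPM with mock treatment. CA1200 at 24 h had 45.7, 33.4 and 37.5 CPM with auxin, against 25.5, 15.3 and 7.82 CPM with mock treatment. Here the spread lay mostly in the mock libraries, and the log2 difference was 0.99 (SE 0.41) in JTL611 and 1.40 (SE 0.41) in CA1200.

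T16G1.6 showed the largest log2 difference of the 5 genes in all 4 fertile comparisons. At 8 h it had 11.05, 2.74 and 5.54 CPM in auxin-treated JTL611, against 1.86, 1.10 and 1.04 CPM in mock JTL611. CA1200 at 8 h had 18.6, 14.9 and 5.38 CPM with auxin, against 2.40, 1.44 and 0.927 CPM with mock treatment. The auxin libraries of each strain were all above its mock libraries, and the log2 difference was 2.01 (SE 0.55) in JTL611 and 2.85 (SE 0.55) in CA1200. At 24 h JTL611 had 6.35, 5.90 and 11.6 CPM with auxin, against 2.85, 1.82 and 1.45 CPM with mock treatment. CA1200 at 24 h had 10.7, 9.87 and 19.5 CPM with auxin, against 1.38, 2.17 and 1.39 CPM with mock treatment. The log2 difference was 1.89 (SE 0.35) in JTL611 and 2.90 (SE 0.35) in CA1200.

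**Figure D1:**
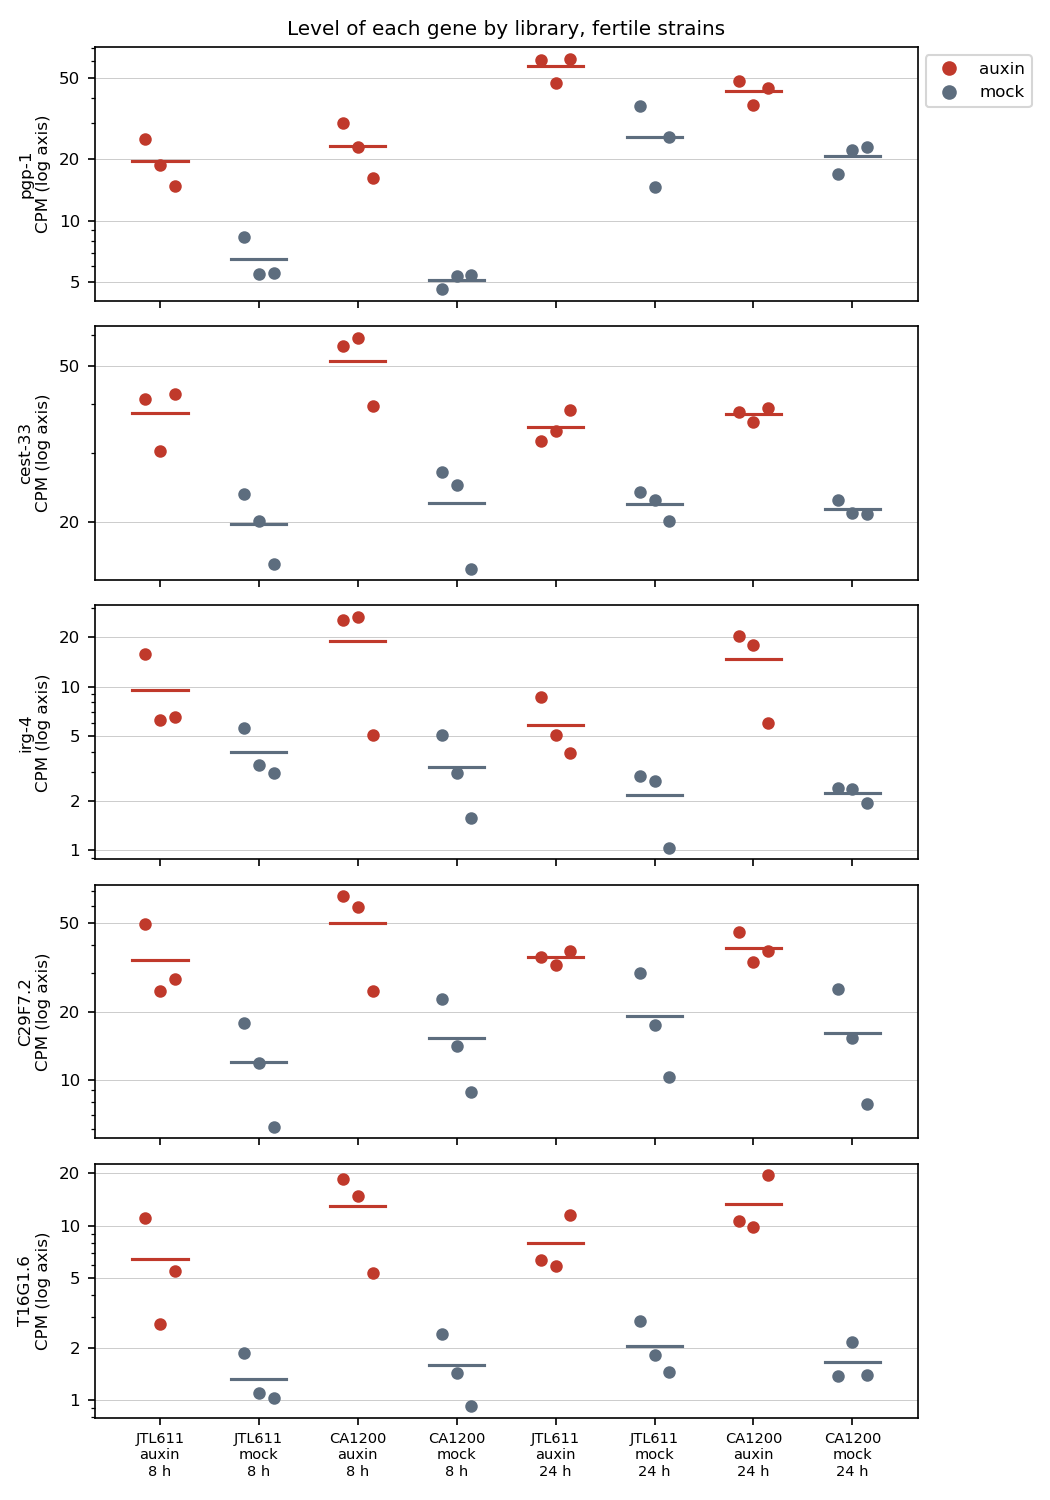
Level of each of the 5 genes in the fertile strains, in CPM on a log axis, at 8 h and 24 h. Points are libraries, horizontal lines are group means, and auxin stands left of mock in JTL611 and CA1200. The auxin points lie above all mock points of the same strain and time in every panel except irg-4 in CA1200 at 8 h, where 1 auxin library reads 5.06 CPM and 1 mock library 5.07 CPM.

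The mean with auxin was thus above the mock mean for 10 of 10 gene and time combinations in JTL611 and for 10 of 10 in CA1200, and the groups did not overlap in 10 of 10 and 9 of 10. Since the genes were chosen for this, nothing is read from those counts. Over all genes tested, every auxin library was above every mock library for 2.34% of genes in JTL611 and 6.38% in CA1200 at 8 h, and for 3.08% in JTL611 and 2.04% in CA1200 at 24 h. The median difference of the 5 genes was 1.57 in JTL611 and 2.10 in CA1200 at 8 h, and 1.23 in JTL611 and 1.40 in CA1200 at 24 h, beside a median of -0.01 over all genes tested in each of these 4 comparisons (log2).

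Whether the auxin response differed between the strain with the degron and the strain without it was tested as the difference between both strains' differences. Both of these had entered the choice of genes, so the test is not independent of it. At 8 h, auxin response of JTL611 minus auxin response of CA1200 was -0.53 for pgp-1 (95% interval -1.32 to 0.26), -0.28 for cest-33 (-1.03 to 0.47), -1.19 for irg-4 (-3.15 to 0.76), -0.11 for C29F7.2 (-1.61 to 1.38) and -0.84 for T16G1.6 (-2.56 to 0.87), all in log2 units. None passed limma's test, with adjusted p between 0.88 and 0.98. At 24 h it was 0.17 for pgp-1 (-0.68 to 1.02), -0.15 for cest-33 (-0.53 to 0.23), -1.06 for irg-4 (-2.55 to 0.42), -0.41 for C29F7.2 (-1.66 to 0.85) and -1.01 for T16G1.6 (-2.10 to 0.08), and none passed limma's test (adjusted p = 0.9995 for each). No gene at all passed at either time, 0% of 10739 and 0% of 10245 genes tested, and 2.19% of genes at 8 h and 1.08% at 24 h had an unadjusted limma p under 0.05, none of the 5 genes among them. The intervals of irg-4, C29F7.2 and T16G1.6 are wide enough to hold both a much smaller and an equal response in JTL611, and the test does not show that the strains responded alike. Same-numbered libraries deviated together in the 24 h comparison, and the intervals, from a fit without a block, do not use this. The narrowest interval, that of cest-33 at 24 h, leaves out a response in JTL611 that is lower by more than 0.53 or higher by more than 0.23.

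**Figure D2:**
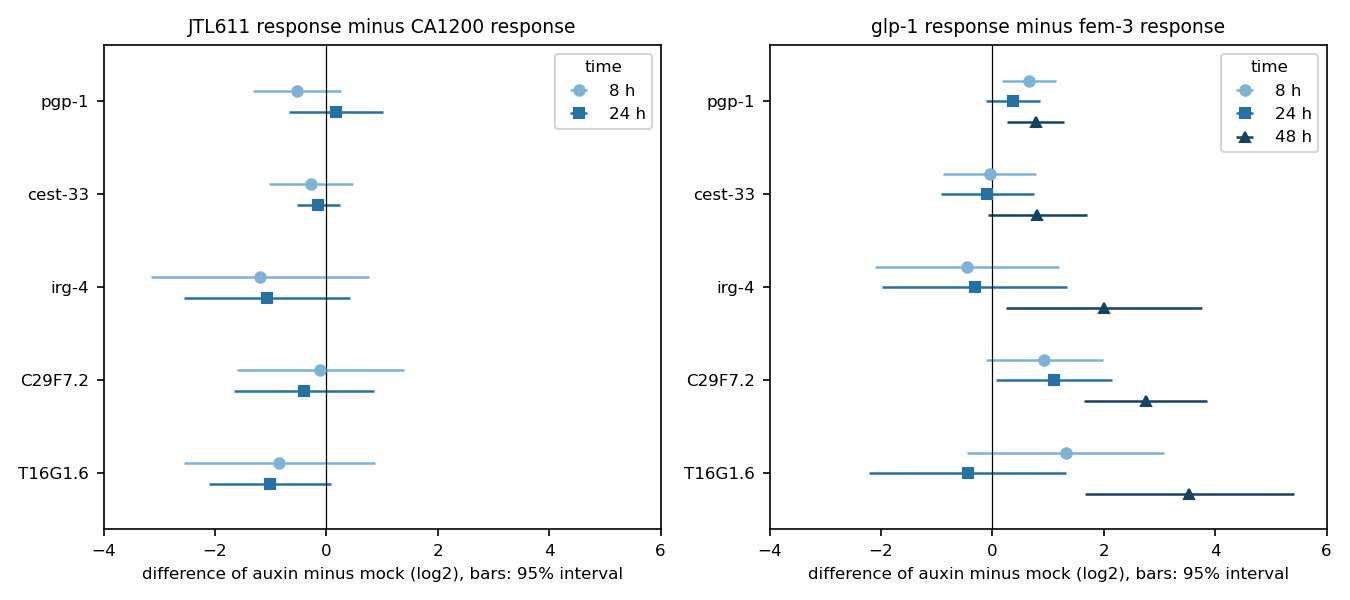
Difference of auxin responses, JTL611 minus CA1200 at 8 h and 24 h and glp-1(e2141) minus fem-3(q20) at 8, 24 and 48 h, for each of the 5 genes in log2 units. Points are limma estimates, bars are 95% intervals and the vertical line at 0 marks no difference. All 10 intervals of the fertile strains include 0, and C29F7.2 in the sterile strains at 48 h lies at 2.75.

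With both strains on auxin, JTL611 minus CA1200 at 8 h was -0.23 for pgp-1, -0.43 for cest-33, -0.81 for irg-4, -0.49 for C29F7.2 and -1.03 for T16G1.6 (log2), and none passed limma's test (adjusted p = 0.98 for each). At 24 h irg-4 had the largest of these differences, -1.21 (95% interval -2.26 to -0.16). Its unadjusted p was 0.027 and its adjusted p in limma was 1.0, so it failed the correction. The others at 24 h were 0.40 for pgp-1, -0.11 for cest-33, -0.13 for C29F7.2 and -0.74 for T16G1.6. Again 0% of genes passed at either time, and 259 genes at 8 h and 324 at 24 h had an unadjusted limma p under 0.05. With both strains mock-treated, JTL611 minus CA1200 ran from -0.37 for C29F7.2 to 0.39 for irg-4 at 8 h and from -0.15 for irg-4 to 0.27 for C29F7.2 at 24 h. None of the 5 genes and 0% of all genes passed limma's test there, and 145 genes at 8 h and 78 at 24 h had an unadjusted p below 0.05. The auxin and mock libraries compared between the strains had also entered the choice of genes, so none of these tests is independent of it.

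In the sterile strains the genes were expressed at levels of their own, and auxin was again mostly the higher treatment. pgp-1 in glp-1(e2141) had 190.1, 166.7 and 188.9 CPM with auxin at 8 h, against 112.2, 118.6 and 89.98 CPM with mock treatment, a log2 difference of 0.77 (SE 0.17). At 24 h it averaged 177.8 ± 16.1 CPM with auxin and 93.5 ± 7.13 CPM with mock treatment (SD, n = 3 each), a difference of 0.92 (SE 0.17). At 48 h it had 218.8 and 159.2 CPM with auxin, against 50.1, 63.3 and 43.0 CPM with mock treatment, a difference of 1.86 (SE 0.19). In fem-3(q20) at 8 h the treatments overlapped, with 139.0, 152.5 and 117.2 CPM with auxin, against 130.7, 135.1 and 108.4 CPM with mock treatment, a difference of 0.13 (SE 0.17). They were apart by 24 h, at 117.3, 100.1 and 82.4 CPM with auxin, against 79.3, 65.4 and 58.0 CPM with mock treatment (0.56, SE 0.17). At 48 h fem-3(q20) had 137.2, 112.8 and 139.1 CPM with auxin, against 48.3, 70.3 and 66.8 CPM with mock treatment (1.08, SE 0.17). The transporter's mock level was lower at 48 h than at 8 h in both strains, while its auxin level in glp-1(e2141) stayed between 159.2 and 218.8 CPM at all 3 times.

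cest-33 was higher in glp-1(e2141) than in fem-3(q20) under either treatment. In glp-1(e2141) it had 564.2, 320.9 and 543.5 CPM with auxin at 8 h, against 274.8, 179.4 and 250.8 CPM with mock treatment, and 520.3 and 351.0 CPM with auxin at 48 h, against 120.4, 89.3 and 107.6 CPM with mock treatment. Its log2 difference was 0.997 (SE 0.29), 0.93 (SE 0.29) and 2.02 (SE 0.32) at 8, 24 and 48 h. In fem-3(q20) it had 189.3, 101.7 and 116.9 CPM with auxin at 8 h, against 80.3, 57.4 and 55.2 CPM with mock treatment, and 88.4, 41.2 and 62.4 CPM with auxin at 48 h, against 24.7, 25.7 and 28.1 CPM with mock treatment. The difference there was 1.05, 1.02 and 1.22 at 8, 24 and 48 h (SE 0.29 each). All 6 pairs of groups were apart, and auxin and mock levels of cest-33 both came out lower at 48 h than at 8 h in fem-3(q20).

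irg-4 was far higher in glp-1(e2141) than in fem-3(q20). In glp-1(e2141) it had 346.4, 135.1 and 315.1 CPM with auxin at 8 h, against 76.4, 40.9 and 59.4 CPM with mock treatment, and at 48 h it had 77.5 and 44.2 CPM with auxin, against 14.8, 6.82 and 17.9 CPM with mock treatment. The log2 difference was 2.10 (SE 0.57), 1.94 (SE 0.57) and 2.25 (SE 0.64) at 8, 24 and 48 h. In fem-3(q20) it had 48.4, 10.98 and 17.0 CPM with auxin at 8 h, against 3.10, 2.88 and 4.51 CPM with mock treatment (2.56, SE 0.57). At 24 h fem-3(q20) had 12.8, 3.49 and 11.6 CPM with auxin, against 2.08, 2.56 and 0.706 CPM with mock treatment (2.26, SE 0.57). By 48 h it was around 1 CPM or lower in fem-3(q20), at 1.73, 0.965 and 0.374 CPM with auxin, against 0.743, 0.750 and 0.658 CPM with mock treatment, and the groups overlapped (0.26, SE 0.57).

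C29F7.2 showed the largest auxin to mock ratio of the 50 member comparisons, in glp-1(e2141) at 48 h. In glp-1(e2141) it had 105.0, 39.4 and 82.2 CPM with auxin at 8 h, against 31.3, 13.4 and 14.1 CPM with mock treatment (1.94, SE 0.36). At 24 h it had 165.8, 90.1 and 116.7 CPM with auxin, against 46.1, 20.9 and 23.0 CPM with mock treatment (2.09, SE 0.36). At 48 h the 2 auxin libraries had 335.8 and 183.4 CPM, against 17.2, 23.6 and 10.3 CPM with mock treatment (3.93, SE 0.40), so that their mean was 15.2 times the mock mean. In fem-3(q20) the difference was 1.01, 0.98 and 1.18 at 8, 24 and 48 h (SE 0.36 each). There C29F7.2 averaged 210.4 ± 42.8 CPM with auxin and 91.2 ± 3.38 CPM with mock treatment at 48 h (SD, n = 3 each).

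T16G1.6 was not clearly higher with auxin in every comparison of the sterile strains. In glp-1(e2141) at 8 h it had 15.2, 4.51 and 14.1 CPM with auxin, against 1.76, 1.68 and 2.89 CPM with mock treatment (2.21, SE 0.61). At 24 h the groups overlapped, at 3.28, 2.48 and 5.07 CPM with auxin, against 6.84, 2.03 and 1.55 CPM with mock treatment (0.29, SE 0.61). The 6.84 CPM belong to replicate 1, the shallowest library, in which 4340 listed genes had no read. The other mock libraries of that group lay below all of its auxin libraries. At 48 h it had 95 and 27 reads with auxin, which is 5.16 and 1.98 CPM, against 16, 3 and 0 reads with mock treatment (3.30, SE 0.68). With reads this few the size of that difference depended on the pseudocount, and it was 1.70 with a pseudocount of 1 CPM. In fem-3(q20) at 8 h it had 32.1, 17.5 and 20.9 CPM with auxin, against 17.0, 8.22 and 12.8 CPM with mock treatment (0.90, SE 0.61). The groups overlapped at 24 h (0.74, SE 0.61). At 48 h it had 5.32, 5.79 and 6.89 CPM with auxin, against 7.73, 5.94 and 7.68 CPM with mock treatment (-0.24, SE 0.61), the only one of the 50 member comparisons in which the auxin mean was below the mock mean.

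**Figure D3:**
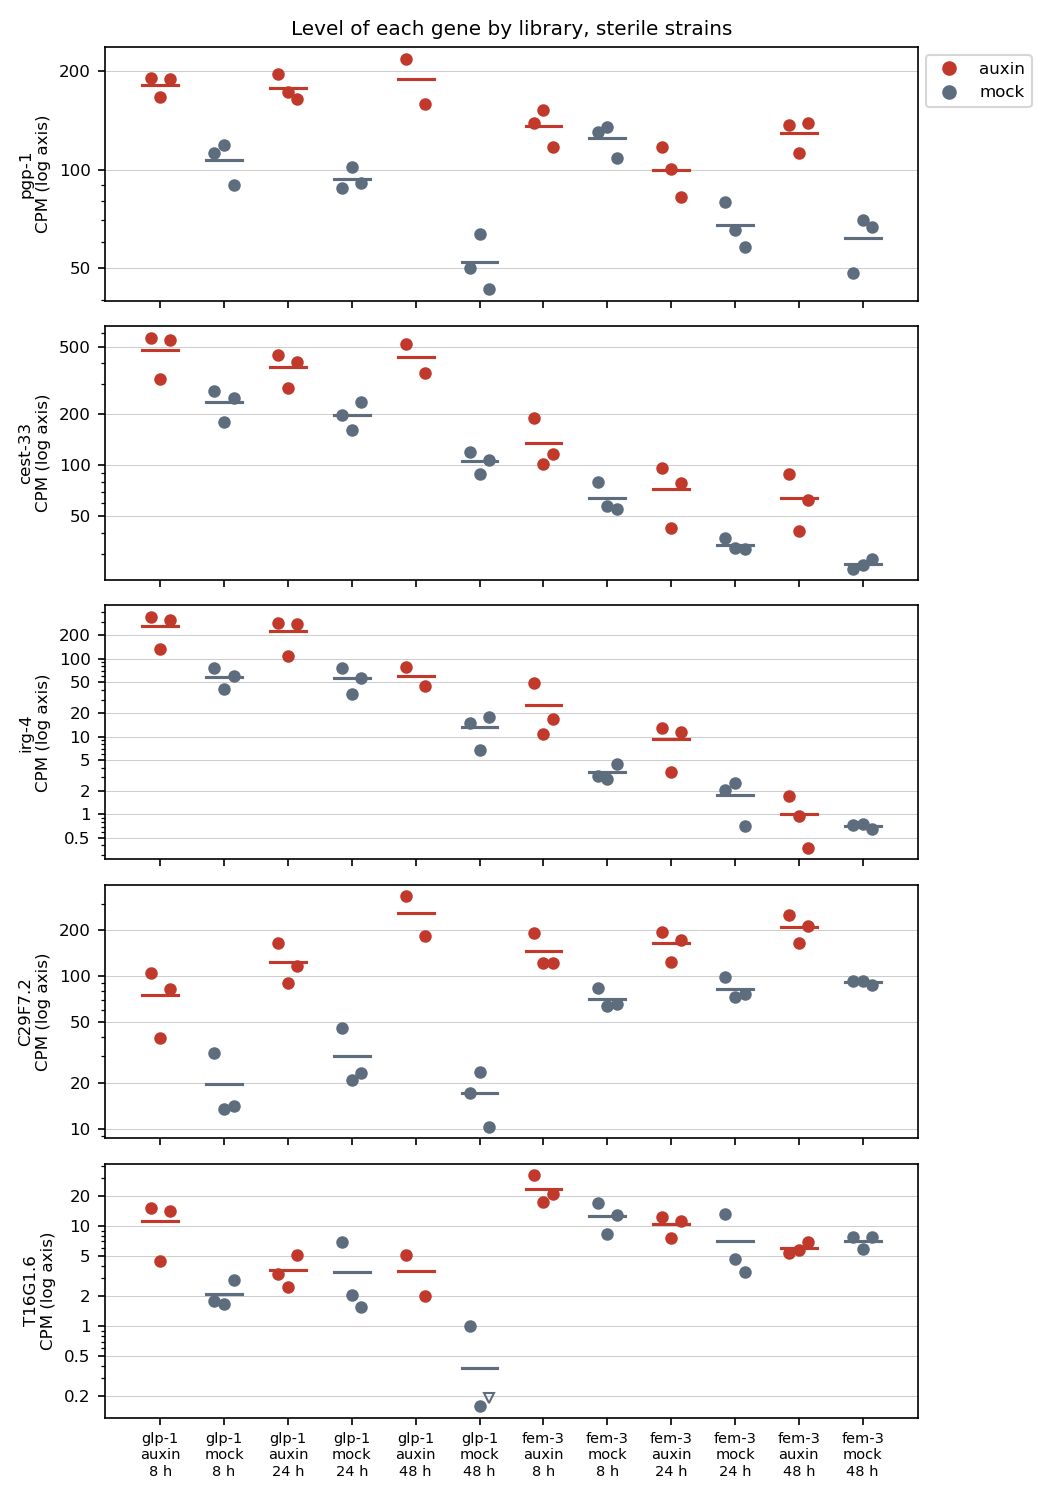
Level of each of the 5 genes in the sterile strains, in CPM on a log axis, at 8, 24 and 48 h. Points are libraries, horizontal lines are group means, open triangles are libraries with fewer than 3 reads drawn at the level of 3 reads, and auxin stands left of mock. C29F7.2 in glp-1(e2141) at 48 h shows the widest gap, and irg-4 in fem-3(q20) lies near 1 CPM by 48 h.

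The groups did not overlap, auxin above mock, for 5, 4 and 5 of the 5 genes in glp-1(e2141) at 8, 24 and 48 h, where 4.93%, 7.01% and 14.4% of all genes did the same, and for 4, 4 and 3 of the 5 in fem-3(q20), where 5.71%, 11.8% and 17.1% did. The rule used these differences as well. Without the 18 libraries whose labels conflict, the median of the 5 differences was 1.65, 0.998 and 2.93 in glp-1(e2141) at 8, 24 and 48 h, against 1.94, 0.93 and 2.25 with them. In fem-3(q20), where only replicate 1 remains, it was 1.19, 0.99 and 1.44, against 1.01, 0.98 and 1.08 with all libraries. T16G1.6 in glp-1(e2141) at 24 h turned to -0.38 and in fem-3(q20) at 24 h to -0.10 without those libraries. In glp-1(e2141), replicate 1, which holds the shallowest mock library, gave -1.03 there and replicate 2 gave 0.27.

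**Figure D4:**
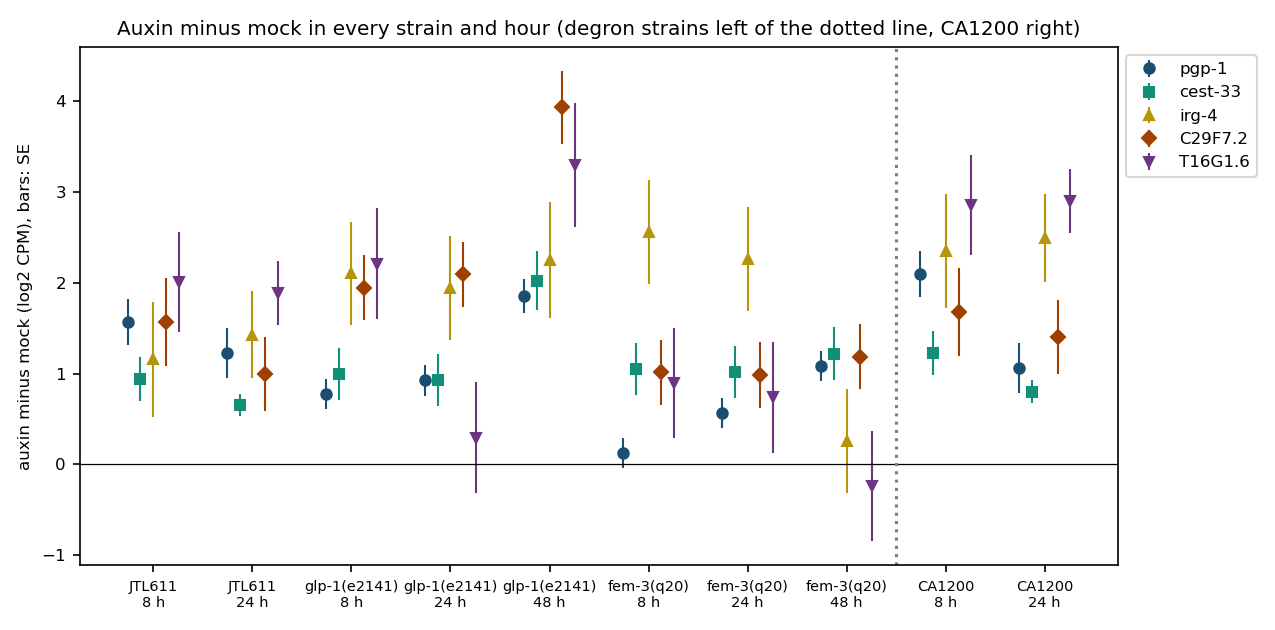
Auxin minus mock difference of each of the 5 genes in all 10 strain and time combinations, in log2 units. Points are limma estimates, bars are their standard errors, degron strains stand left of the dotted vertical line and CA1200 right of it. Of the 50 points 49 lie above 0, and the exception is T16G1.6 in fem-3(q20) at 48 h, at -0.24.

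The size of the response was also compared between the sterile strains. Each strain's own difference entered the choice of genes, so a test of how these differences differ is not independent of that choice. At 48 h, the auxin response of C29F7.2 was larger in glp-1(e2141) than in fem-3(q20) by 2.75 on the log2 scale (SE 0.54, 95% interval 1.64 to 3.86), with an adjusted p of 0.0148 in limma, in a comparison where 0.399% of all genes passed. Its mock mean was 17.0 CPM in glp-1(e2141) and 91.2 CPM in fem-3(q20). Its auxin mean was 259.6 CPM in glp-1(e2141) and 210.4 CPM in fem-3(q20), and the auxin libraries of the strains overlapped. T16G1.6 differed by 3.54 (1.66 to 5.41, adjusted p = 0.087 in limma; 1.91 with a pseudocount of 1 CPM), irg-4 by 1.996 (0.24 to 3.75), pgp-1 by 0.77 (0.26 to 1.29) and cest-33 by 0.81 (-0.08 to 1.69), and none of these 4 passed. The C29F7.2 result rested on 1 of the 2 auxin libraries: without replicate 1 of auxin-treated glp-1(e2141) it was 2.31 with an adjusted p of 0.13 in limma. Without the 18 libraries it was 2.61 (adjusted p = 0.93 in limma), from 1 library in each group but mock glp-1(e2141), in a fit that takes a lone library to vary like the other groups. Markers moved with auxin at 48 h as well. Intestine markers, none of them at 0, summed to 1493 to 1546 CPM with auxin and 1215 to 1528 CPM with mock treatment in glp-1(e2141), where 1 of 6 was higher and 1 lower in limma's test, and to 615.3 to 646.2 CPM with auxin and 429.8 to 480.3 CPM with mock treatment in fem-3(q20), where 1 of 6 was higher. Neuron markers summed to 367.8 to 386.1 CPM with auxin and 273.4 to 296.2 CPM with mock treatment in glp-1(e2141), with 1 of 3 higher, and to 194.2 to 207.9 CPM with auxin and 149.2 to 169.2 CPM with mock treatment in fem-3(q20), with 0 of 3 called. Muscle markers in glp-1(e2141) summed to 1078 to 1188 CPM with auxin and 1258 to 1838 CPM with mock treatment, with 0 of 3 called. In fem-3(q20) muscle markers overlapped, at 309.8 to 420.0 CPM with auxin and 368.2 to 574.6 CPM with mock treatment. Germ cell markers there summed to 1592 to 1665 CPM with auxin and 1893 to 1927 CPM with mock treatment (0 of 10 called). Sperm markers there summed to 2371 to 2491 CPM with auxin and 2100 to 2313 CPM with mock treatment (0 of 6 called). Their part in the responses of the 5 genes at 48 h was not tested. At 8 h the largest difference was that of T16G1.6, 1.31, and pgp-1 differed by 0.65 (0.16 to 1.13). At 24 h C29F7.2 differed by 1.11 (0.07 to 2.15). None of the 5 genes passed at 8 h or at 24 h, where 0% and 0.035% of all genes did and where 518 and 1245 genes had an unadjusted limma p under 0.05, 1 of the 5 genes in each.

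Over time within glp-1(e2141), the response of pgp-1 was larger at 48 h than at 8 h by 1.08 (SE 0.25, 95% interval 0.57 to 1.596, adjusted p = 0.0183 in limma), in a comparison where 1.81% of all genes passed. The responses at both times had entered the choice of genes here too. Its mock level was 52.1 ± 10.3 CPM at 48 h and 106.9 ± 15.03 CPM at 8 h (SD, n = 3 each), and its mean level with auxin was 189.0 CPM at 48 h and 181.9 CPM at 8 h. C29F7.2 differed by 1.99 and did not pass (adjusted p = 0.052 in limma). The pgp-1 result was also lost without replicate 1 of auxin-treated glp-1(e2141) at 48 h (0.85, adjusted p = 0.19 in limma). Without the 18 libraries it was 1.33, from 1 auxin library at 48 h, and no call is read from that. In fem-3(q20) the response of pgp-1 at 48 h exceeded that at 8 h by 0.96 (0.47 to 1.44), which did not pass (adjusted p = 0.060 in limma), and that of irg-4 differed by -2.303 (-3.96 to -0.65, adjusted p = 0.33 in limma), where 0.533% of all genes passed and 961 had an unadjusted p under 0.05. No member passed from 8 to 24 h in either strain (limma; background 0.0911% in glp-1(e2141) and 0.014% in fem-3(q20), where 1422 and 508 genes had an unadjusted p below 0.05), and T16G1.6 in glp-1(e2141) was the only one with an unadjusted p under 0.05.

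Mock worms of the sterile strains differed in 4 of the 5 genes at each time, where 68.5%, 73% and 70.6% of all genes passed at 8, 24 and 48 h, so a share of 4 in 5 is near the background. The mock libraries had entered the choice of genes as part of the auxin minus mock differences, so these tests are not independent of it. cest-33 and irg-4 were higher in mock glp-1(e2141) than in mock fem-3(q20) at all 3 times. cest-33 was higher by 1.87, 2.53 and 2.0005 and irg-4 by 4.01, 4.98 and 3.87 on the log2 scale at 8, 24 and 48 h, all past limma's test. C29F7.2 was lower in glp-1(e2141), with differences of -1.96, -1.54 and -2.49, also past the test. T16G1.6 was lower at 8 h (-2.50) and at 48 h (-4.40) and did not pass at 24 h (-1.07, adjusted p = 0.11 in limma). pgp-1 was close to 0, at -0.23, 0.48 and -0.24, of which only 24 h passed (adjusted p = 0.0108 in limma). Centring each library on its median moved these differences up by 0.80, 0.995 and 0.95. cest-33, irg-4, T16G1.6 and C29F7.2 kept their direction under that centring, although C29F7.2 at 24 h no longer passed (adjusted p = 0.18 in limma), and pgp-1 turned to 0.57 at 8 h and 0.71 at 48 h. Without the 18 libraries, mock fem-3(q20) was 1 library at each time, so no call is read from that fit. cest-33 and irg-4 stayed higher in mock glp-1(e2141) there at all 3 times, and C29F7.2 stayed lower (-2.02, -1.66 and -2.20). Intestine markers moved with the strain: 6, 6 and 5 of 6 were higher in mock glp-1(e2141) at 8, 24 and 48 h, with a summed level of 1129 to 1787 CPM in mock glp-1(e2141) and 416.5 to 738.5 CPM in mock fem-3(q20). Germ cell markers were lower in glp-1(e2141) for 10, 10 and 9 of 10. Their part in the differences of the 5 genes was not tested.

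The mock level of most of the genes was lower at 48 h than at 8 h. These mock libraries had entered the choice of genes through the auxin minus mock differences, so the tests are not independent of it. In mock glp-1(e2141), pgp-1 fell by 1.04, cest-33 fell by 1.14 (adjusted p = 0.0036), irg-4 fell by 2.21 (adjusted p = 0.0043) and T16G1.6 fell by 2.68 (adjusted p = 0.0013) on the log2 scale in limma's test, where 12.7% of all genes were called lower. C29F7.2 differed by -0.16 (-0.90 to 0.57). In mock fem-3(q20), pgp-1 fell by 1.03, cest-33 fell by 1.27 (adjusted p = 0.0017) and irg-4 fell by 2.08 (adjusted p = 0.0095) in limma's test, beside 9.21% of all genes, while T16G1.6 (-0.77) and C29F7.2 (0.37) did not pass. Only pgp-1 in fem-3(q20) had already passed at 24 h (-0.89, adjusted p = 0.0009 in limma), in a comparison that called 4.49% of genes lower. None of the 5 genes passed at 24 h in mock glp-1(e2141), where 13.3% of all genes did and 4048 had an unadjusted limma p under 0.05. Without the 18 libraries pgp-1 alone still passed from 8 to 48 h in glp-1(e2141), from replicates 1 and 2 (adjusted p = 0.011 in limma). In fem-3(q20) only replicate 1 remained at each time, so no call is read there. For the fertile strains the 2 times were in tables normalized apart: pgp-1 averaged 56.9 CPM at 24 h and 19.5 CPM at 8 h in auxin-treated JTL611, and 20.6 CPM at 24 h and 5.14 CPM at 8 h in mock CA1200, and these values were not compared further.

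Across the 59 libraries, after the mean of the same strain and time was taken off, the 5 genes went up and down together, with Pearson's r between 0.67 (pgp-1 and irg-4) and 0.90 (C29F7.2 and cest-33). Each strain and time holds auxin and mock libraries, so these values contain the auxin difference that chose the genes, and they are given as a description. Of 9600 genes tested in all tables, the 2 most like each member, with the other members left out, are named here. For C29F7.2 they were cyp-35A5 (r = 0.92) and ugt-16 (r = 0.88), and for cest-33 they were cyp-35A5 (r = 0.94) and cyp-35A4 (r = 0.91). For pgp-1 they were ugt-16 (r = 0.86) and K09C4.5 (r = 0.82), and for T16G1.6 they were ugt-16 (r = 0.86) and cyp-35D1 (r = 0.80). The genes most like irg-4 were F55G11.2 (r = 0.90) and gst-5 (r = 0.86). All of these are across 59 libraries.

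The auxin mean was above the mock mean in all 10 strain and time combinations for 66 of the 9600 genes, or 0.688%, and 4 of the 5 members were among them. The members were chosen by these same differences, so nothing is read from that count or from their ranks below. Ranked by the lowest of the 10 differences, C29F7.2 was 3rd (0.98), cest-33 9th (0.65), irg-4 17th (0.26) and pgp-1 27th (0.13), while T16G1.6 with its value below 0 in fem-3(q20) at 48 h was 3161st (-0.24). The 5 other genes at the top of this ranking were cyp-35A4 (lowest difference 1.64), cyp-35A3 (1.22), cyp-35A5 (0.91), F55G11.2 (0.84) and cyp-35C1 (0.78), and 4 of them encode cytochrome P450 enzymes of the cyp-35 group. In CA1200 at 8 h cyp-35A3 averaged 56.2 ± 6.57 CPM with auxin and 7.31 ± 5.74 CPM with mock treatment (SD, n = 3 each).

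**Figure D5:**
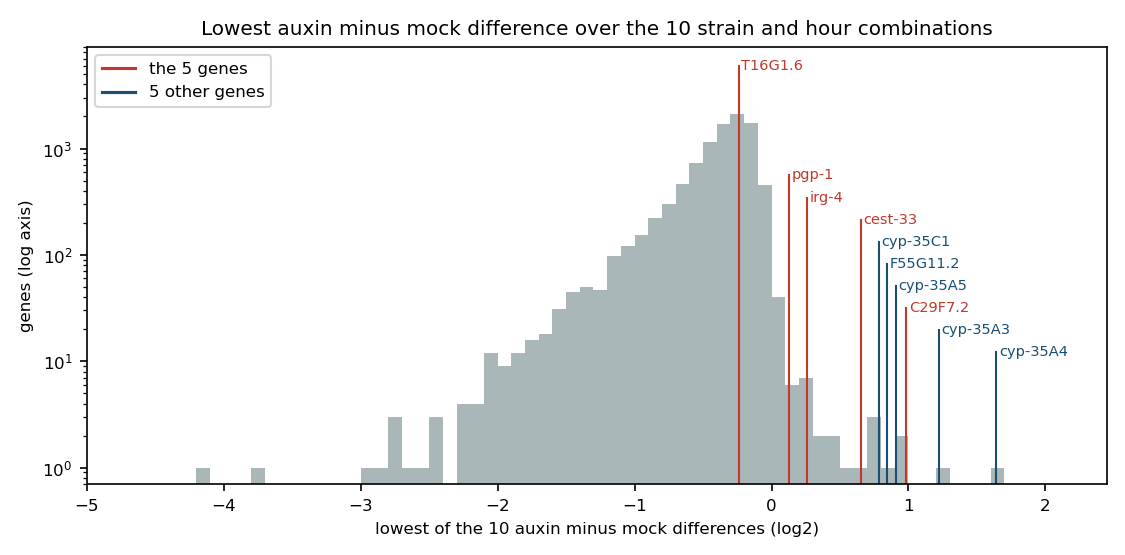
Lowest of the 10 auxin minus mock differences (log2) of each of 9600 genes, as a histogram with a log axis for the number of genes. Marks show the 5 members and the 5 other genes with the highest values. The bulk of the genes lies below 0, and 66 genes lie above it, with cyp-35A4 furthest to the right at 1.64.

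The families of the members gave no call in the fertile strains, where 0% of all genes passed in JTL611 and 0.00931% at 8 h and 0.00976% at 24 h in CA1200. Among the other pgp genes, 0 of 11 passed limma's test in CA1200 or JTL611 at 8 h and 0 of 9 at 24 h, with 1 unadjusted p under 0.05 in CA1200 at 8 h and none in the other 3 comparisons. Their median difference in CA1200 was 0.30 at 8 h and -0.05 at 24 h, beside -0.01 over all genes at both times, and pgp-3 had the largest, 17.1 ± 4.31 CPM with auxin and 9.42 ± 2.296 CPM with mock treatment in CA1200 at 8 h (SD, n = 3 each). Other cest genes, of which 24 were tested at 8 h and 25 at 24 h, had medians of 0.19 and -0.03 in CA1200 and gave no call. Other irg genes numbered 4 and 5, with medians of 0.32 and -0.40 in CA1200 and no call; irg-5 stood at 11.3 ± 11.1 CPM with auxin and 3.50 ± 2.75 CPM with mock treatment in CA1200 at 8 h (SD, n = 3 each). irg-5 rose in glp-1(e2141) at 48 h, with 792.2 ± 244.8 CPM with auxin (n = 2) and 145.2 ± 33.6 CPM with mock treatment (n = 3), and pgp-9 rose in both sterile strains at 48 h, by 0.74 in glp-1(e2141) (adjusted p = 0.035) and 0.91 in fem-3(q20) (adjusted p = 0.0046 in limma). In glp-1(e2141) at 48 h, 2 of 7 other irg genes, 1 of 13 other pgp genes and 2 of 29 other cest genes were higher in limma's test and 1 irg gene was lower, beside 2.92% of all genes higher and 1.94% lower. In fem-3(q20) at 48 h, 2 of 13 pgp genes were higher, and 1 of 7 irg genes and 2 of 29 cest genes were lower, beside 0.897% of all genes higher and 1.33% lower.

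The wider detoxification families gave no call in the fertile strains either, but some of their genes lay far from 0. In JTL611 at 8 h, 8 of 37 cyp genes, 12 of 47 ugt genes and 7 of 24 gst genes had an unadjusted limma p under 0.05, beside 1.86% of all genes, with list medians of 0.23, 0.12 and 0.21. In CA1200 at 8 h, 8 of 37 cyp genes, 10 of 47 ugt genes and 4 of 24 gst genes did, beside 3.93% of all genes, with medians of 0.13, 0.22 and -0.07. ugt-22 averaged 154.4 ± 26.6 CPM with auxin and 54.5 ± 19.4 CPM with mock treatment in CA1200 at 8 h, and gst-5 averaged 19.8 ± 5.76 CPM with auxin and 7.79 ± 2.22 CPM with mock treatment (SD, n = 3 each). In glp-1(e2141) at 48 h, 9 of 61 cyp genes, 8 of 59 ugt genes and 1 of 32 gst genes passed limma's test as higher and 4, 3 and 1 as lower, with medians of 0.05, 0.04 and -0.17 beside 0.00 over all genes, of which 4.86% passed and 2.92% were higher. In that strain 1 cyp gene, 0 ugt genes and 1 gst gene were higher at 8 h, where 0.428% of all genes passed, and 5 cyp genes and 1 ugt gene were higher and 1 cyp gene lower at 24 h, where 0.659% did. In fem-3(q20) at 48 h, 3 of 61 cyp genes and 3 of 59 ugt genes passed as higher and 1 and 3 as lower, beside 0.897% of all genes higher and 1.33% lower. At 24 h in fem-3(q20), 0 cyp genes, 1 ugt gene and 2 gst genes were higher, beside 0.147% of all genes. No cyp, ugt or gst gene passed in fem-3(q20) at 8 h, where 0.021% of all genes were called higher and 0.203% lower (limma).

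Of the genes next to the members, T16G1.7 had the largest differences in CA1200. T16G1.7, whose end lies 426 bp from T16G1.6 on the same strand, averaged 5.93 ± 1.51 CPM with auxin and 0.794 ± 0.365 CPM with mock treatment in CA1200 at 8 h, and 11.7 ± 4.64 CPM with auxin and 1.98 ± 0.451 CPM with mock treatment at 24 h (SD, n = 3 each). In JTL611 at 8 h it averaged 3.604 ± 1.89 CPM with auxin and 0.948 ± 0.570 CPM with mock treatment (SD, n = 3 each), and there the groups overlapped. C29F7.1, on the same strand 1461 bp from C29F7.2, differed by 0.63 at 8 h and 0.98 at 24 h in CA1200 (log2). In JTL611 it differed by 0.45 and 0.22. In glp-1(e2141) at 48 h it averaged 13.6 ± 5.44 CPM with auxin (n = 2) and 4.01 ± 0.685 CPM with mock treatment (SD, n = 3). C29F7.3, 620 bp away on the other strand, ran from 0.02 in JTL611 at 24 h to 0.63 in glp-1(e2141) at 48 h. How reads that match more than 1 gene were counted is not given in the sources used here. A share of reads common to T16G1.6 or C29F7.2 and their neighbours therefore cannot be set aside. Over the 15 protein-coding genes within 5 kb of any member, 10 were tested in the fertile strains, and auxin and mock groups were apart, auxin above mock, for 2 in JTL611 and 1 in CA1200 at 8 h, and for 2 in JTL611 and 3 in CA1200 at 24 h. The shares over all genes tested were 2.34% in JTL611 and 6.38% in CA1200 at 8 h, and 3.08% in JTL611 and 2.04% in CA1200 at 24 h. The median difference of these neighbours was 0.05 in JTL611 and 0.24 in CA1200 at 8 h.

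Chaperone genes under HSF-1 are set beside the 5 genes as a measure of HSF-1 loss, as a list picked with results of these libraries known. The 12 genes hsp-90, hsp-1, hsp-110, dnj-13, dnj-12, dnj-19, fkb-6, sti-1, ahsa-1, cct-3, cct-7 and cct-8 had median auxin minus mock differences of -0.23 in JTL611 and 0.03 in CA1200 at 8 h, and of -0.14 in JTL611 and 0.00 in CA1200 at 24 h. In glp-1(e2141) their median was -0.85, -0.85 and -0.78 at 8, 24 and 48 h, with 10, 11 and 9 of 12 lower in limma's test, beside 0.224%, 0.301% and 1.94% of all genes. In fem-3(q20) it was -0.26, -0.50 and -0.46, with 3, 6 and 6 of 12 lower, beside 0.203%, 0.126% and 1.33% of all genes. Intestine markers moved by small amounts between auxin and mock in the fertile strains, in opposite directions by strain at 24 h. Their summed level was 669.7 to 950.8 CPM with auxin and 692.8 to 839.4 CPM with mock treatment in JTL611 at 8 h, and 844.5 to 982.8 CPM with auxin and 725.4 to 853.1 CPM with mock treatment in CA1200 at 8 h, with a median marker difference of 0.03 in JTL611 and 0.20 in CA1200. At 24 h the sum was 253 to 409 CPM with auxin and 344 to 427 CPM with mock treatment in JTL611. It was 377 to 461 CPM with auxin and 326 to 408 CPM with mock treatment in CA1200. The median marker difference at 24 h was -0.19 in JTL611, with 0 of 6 higher, and 0.12 in CA1200, with 5 of 6 higher. None of the 6 markers was at 0 and none passed limma's test in the fertile strains, and the part of tissue composition in the levels of the 5 genes was not tested.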

How the data were processed

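Whole-worm poly(A) RNA of CA1200, JTL611, glp-1(e2141) and fem-3(q20) degron worms was sequenced. The authors aligned reads with STAR to WBcel235, counted them on genes with featureCounts, normalized and filtered with edgeR, and deposited log2 CPM values with a small prior added. Versions are not given in the sources used here. The CPM values printed here are the deposited log2 values with log and prior (0.1139, 0.1098 and 0.1243 CPM for the 8 h, 24 h and sterile tables) undone. They fell on whole reads for 100% of values (tolerance 0.05 read), which gave the depths. The 24 h table has 1 further column, the authors' own calls, which was not used.

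The deposited log2 values were fitted with limma 3.58.1 (R 4.3.3; trend, all groups of a table in 1 fit, no block), two-sided, with Benjamini-Hochberg adjustment over genes that reached 1 CPM in 25% or more of the libraries of a table (10739, 10245 and 14269 genes). Calls required an adjusted p below 0.05 together with a mean of 2 CPM or more. In the text, "passed" means called. The procedure was tested on simulated data. Groups follow the sample titles. No 2 replicates agreed within sampling noise (58 pairs). Gene positions come from Ensembl release 115; 15682 of 15698 identifiers matched. Named besides the 5 genes are the 2 most correlated genes of each, the 5 with the highest lowest difference and, per list, up to 4 with the largest difference in CA1200. Members and lists were chosen with earlier results of these data known, and so are no independent evidence.

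Same-numbered libraries deviated together (every correlation above 0.1) in all 24 h comparisons of the fertile strains. They also did so between auxin-treated JTL611 and CA1200 at 8 h, and between auxin and mock of fem-3(q20) at 24 h. This was judged from the data only. The printed intervals and p-values come from the fit without a block and do not use it. Alternatives were a replicate block, fewer groups, filters, pseudocounts of 0.1 and 1 CPM, centring, precision weights (voom), left-out libraries and the conflicting treatment tags. Summed marker levels are CPM added over a list. Promoter and protein sequences were not analysed here.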

Additional observations from a re-analysis of the deposited data

Results flagged for a closer look

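The auxin response of C29F7.2 at 48 h differed between the sterile strains by a test of the difference itself, 2.75 larger in glp-1(e2141) than in fem-3(q20) on the log2 scale (limma adjusted p = 0.0148). C29F7.2 was higher with auxin in 2 of 2 pairs of same-numbered libraries in glp-1(e2141) and in 3 of 3 in fem-3(q20), so the strains differ in the size of the difference, with 335.8 and 183.4 CPM in the 2 auxin-treated glp-1(e2141) libraries. The auxin means lay closer together, at 259.6 CPM in glp-1(e2141) and 210.4 CPM in fem-3(q20), than the mock means, at 17.0 and 91.2 CPM.

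The auxin response of pgp-1 within glp-1(e2141) differed between times, 1.08 larger at 48 h than at 8 h on the log2 scale (limma adjusted p = 0.0183), and auxin was above mock in every library at both times. The auxin minus mock differences behind both results had entered the choice of genes. In both cases 1 of the auxin libraries at 48 h, and the 18 libraries with conflicting labels, bear on the call.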

How the results depend on the processing

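Of the 50 auxin minus mock differences, 49 stayed above 0 under each of the 8 alternatives that keep the title labels and all libraries. Filters and fewer groups leave these differences unchanged by construction. The replicate block can move only those of glp-1(e2141) at 48 h, so only pseudocounts, centring and voom could alter the rest. The differences were above 0 in 287 of 295 values with 1 library left out, in 27 of 30 with only the libraries of agreeing labels and in 16 of 30 with treatment taken from the tag. With the tag, the median of the 5 genes was 0.25, 0.41 and 0.48 in glp-1(e2141) and -0.22, -0.32 and -0.078 in fem-3(q20) at 8, 24 and 48 h, and with agreeing labels it was 2.93 in glp-1(e2141) at 48 h. No comparison of JTL611 with CA1200 gave a call under any alternative run, and leaving out 1 library moved the response difference of C29F7.2 over -0.55 to 0.24 at 8 h and -0.81 to 0.035 at 24 h, and that of pgp-1 over -0.18 to 0.47 at 24 h. The response at 48 h of glp-1(e2141) against fem-3(q20), with 1 call, had 2 calls with the replicate block, 0 with the tag, 0 with agreeing labels, and 0 to 2 with 1 library left out (0 without glp-1(e2141) auxin replicate 1, 2 without mock replicate 1). The response of glp-1(e2141) at 48 h against 8 h, with 1 call, had 0 with only the groups compared, 2 with the replicate block, 2 with a pseudocount of 1 CPM, 0 with the tag, 0 with agreeing labels and 0 to 2 with 1 library left out (0 without 48 h auxin replicate 1 or mock replicate 3). That of fem-3(q20), with 0 calls, had 1 with voom, with a pseudocount of 1 CPM, with the replicate block and with only the groups compared, and pgp-1 turned to -0.012 with the tag. Among mock worms, glp-1(e2141) against fem-3(q20) had 2 calls of 4 with agreeing labels at 8 h and at 24 h and 2 with the tag at 24 h, and pgp-1 turned to 0.57 at 8 h and 0.71 at 48 h with centring, to 0.036 at 8 h with the tag and to 0.22 at 48 h with agreeing labels. Mock glp-1(e2141) at 48 h against 8 h, with 4 calls, had 0 with the tag and 1 with agreeing labels. Mock fem-3(q20) at 24 h against 8 h, with 1 call, had 4 with only the groups compared, 3 with voom, 2 with centring, a pseudocount of 1 CPM or the replicate block, and 0 with the tag or agreeing labels. At 48 h against 8 h, with 3 calls, it had 5 with only the groups compared and 1 with the tag or agreeing labels. The replicate block changed no other count. The cause of these shifts was not tested, except that agreeing labels leave fewer libraries. In fem-3(q20) agreeing labels leave 1 library per group, so no call with fem-3(q20) is read from that setting. T16G1.6 in glp-1(e2141) at 48 h, at 3 or fewer reads in 2 of 3 mock libraries, moved most with the pseudocount, to 1.70 at 1 CPM and 4.245 with voom.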
